A study of Homo sapiens with 12 samples.

Results

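MIR3142HG is the host transcript from which miR-146a is cut, and it was followed together with 7 protein-coding genes that carry receptor signals toward NF-kB: the kinases IRAK1, IRAK2, MAP3K8 and MAP3K14 and the adaptors TRAF1, TRAF2 and TRAF6. The 8 genes were found by their Ensembl identifiers among the 25141 genes of the count table, and all 8 had a row. They were chosen with their values in the upCIN85 and siCIN85 comparisons known. The changes of the members that stand out there (MIR3142HG, IRAK2 and MAP3K14 in upCIN85, MAP3K8 in siCIN85) are therefore given as a description without a p-value. Where calls or adjusted p-values of members are given for these comparisons, also under other settings, they describe genes chosen on the same values. They are not read as support. The lists of other genes followed below were also written with earlier results of these data known. Their calls, adjusted p-values and shares are descriptions too.

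The cells were HOS, an established human osteosarcoma line, and the study altered CIN85, an adaptor protein encoded by SH3KBP1. The 4 groups had 3 libraries each. upCIN85 was a geneticin-resistant pool carrying the plasmid pRc/CMV2-Rukl for full-length CIN85, and Mock carried the empty vector. For silencing, 3 siRNAs directed at CIN85 were mixed (siCIN85), and a non-targeting siRNA served as control (siNeg). The upCIN85 and Mock cells were each 1 selected pool as far as the methods state, the time between siRNA transfection and RNA isolation was not given for the sequenced cells in the sources used here, and nothing states whether the 3 libraries of a group came from separate cultures. The p-values therefore measure the spread between these libraries, which may be technical.

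Libraries were made from the 3' ends of mRNA, and their total counts lay between 3540641 and 6049458, with the Mock and upCIN85 libraries (5334731 to 6049458) deeper than the siNeg and siCIN85 libraries (3540641 to 4174860). SH3KBP1 was at 85.1 ± 2.37 CPM (counts per scaled library size, in the usual per-megaread unit; SD, n = 3) in siNeg and 7.54 ± 3.19 in siCIN85, a log2 fold change (log2FC) of -3.51 (adjusted p = 5.09e-08, edgeR). It was at 77.5 ± 5.0 CPM in Mock and 81.3 ± 9.61 in upCIN85, and these libraries overlapped. The 3' end of the plasmid transcript was not given in the sources used here, so the count of 3' tags does not check the overexpression. The paper checked it at the protein level, by western blot of CIN85. Of the markers of bone-forming and mesenchymal cells, VIM (group means of 479 to 617 CPM), COL1A1 (428 to 1075) and SPARC (427 to 643) were abundant, and ALPL was at most 3.26 CPM. ALPL (log2FC 1.76, adjusted p = 0.0340) and COL1A2 (1.35, adjusted p = 0.0439, edgeR) passed as higher in upCIN85 than in Mock, and no marker passed in the other comparisons. The COL1A2 libraries of these groups overlapped, and CDH2 and SPARC were lower in upCIN85 without passing. Group means of leukocyte genes were at most 0.0964 CPM for PTPRC, 0.0566 for CD3E and 1.68 for CD14, and those of endothelial genes at most 0.0880 for VWF, 0.685 for PECAM1 and 3.23 for CDH5, while the epithelial genes EPCAM, CDH1, KRT8 and KRT18 were present in every group, with KRT18 at 206 to 259.6 CPM.

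As background, Toll-like and interleukin-1 receptors recruit the adaptor MYD88, which assembles IRAK kinases and passes the signal to the ubiquitin ligase TRAF6. TNF-family receptors use TRAF2 and related adaptors instead, and both branches lead to the IKK complex, which frees NF-kB to enter the nucleus. miR-146a is known as a gene that NF-kB switches on and as a repressor of IRAK1 and TRAF6, so that it is described as a brake on the pathway.

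The sequences below show the molecule made from the host transcript, its close relative and the places where its seed can pair. The mature forms are those of RefSeq (GRCh38.p14), with the seed, bases 2 to 8 of the miRNA, in capitals.
hsa-miR-146a-5p: uGAGAACUgaauuccauggguu
hsa-miR-146b-5p: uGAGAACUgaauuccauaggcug
hsa-miR-3142: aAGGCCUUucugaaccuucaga
miR-146a-5p lies at chr5:160485372-160485393 (+) and miR-146b-5p at chr10:102436520-102436542 (+). They have the same seed, which only hsa-miR-7153-5p shares with them in the RefSeq table. miR-3142, at chr5:160474492-160474513 (+), comes from the same host transcript and has another seed. None of these mature miRNAs is measured by libraries of mRNA 3' ends, and all values of MIR3142HG are those of the host transcript.

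The 7-base complement of the miR-146a seed, AGTTCTC, stands in 2 places in the 3' UTR of IRAK1 (1359 bases long) and in 3 places in that of TRAF6 (2811 bases). All 5 are followed by an A. It was absent from the annotated 3' UTRs of IRAK2, TRAF1, TRAF2, MAP3K8 and MAP3K14. Of 19115 genes with an annotated 3' UTR (GENCODE 29, GRCh38), 11.25% hold the same letters at least once. Among those with a 3' UTR at least as long as that of IRAK1 or of TRAF6, 21.5% and 30.66% hold them. The first site of IRAK1 and the first and last of TRAF6 are shown with the match in capitals.
IRAK1: ccggaagtcaaAGTTCTCatggtcagaag
TRAF6: ctagaaagttgAGTTCTCatttttttaac
TRAF6: tcgtggaatctAGTTCTCagggagacccg
The stretches shown lie at chrX:154011802-154011830 (-), chr11:36489348-36489376 (-) and chr11:36488549-36488577 (-). Their matches in capitals begin at bases 40, 473 and 1272 after the stop codon, counted along the spliced mRNA. A match is a description of letters and not evidence of pairing in these cells.

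MIR3142HG is annotated as a lincRNA at chr5:160438594-160487426 (+) (GRCh38). The miR-146a hairpin stands inside exon 2 of the annotated basic transcript, and the miR-3142 hairpin in its intron. The 300-base promoter window of MIR3142HG in RefSeq, chr5:160468001-160468300 (+), holds 1 match to the NF-kB consensus on the strand of the gene, GGGACTTTCC, which begins 120 bases before the start site and is set in capitals.
MIR3142HG: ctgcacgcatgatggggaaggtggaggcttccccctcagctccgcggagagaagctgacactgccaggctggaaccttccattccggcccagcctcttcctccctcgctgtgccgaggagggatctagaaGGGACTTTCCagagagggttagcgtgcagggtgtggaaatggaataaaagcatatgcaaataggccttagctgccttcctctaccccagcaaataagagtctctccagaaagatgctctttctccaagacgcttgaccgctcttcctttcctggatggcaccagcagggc
Searched on both strands, the consensus occurred in 11.27% of 35116 such windows. It occurred in 5 of the 12 windows of the 8 genes, which belong to 3 genes: MIR3142HG, MAP3K8 and IRAK1. Overlapping windows of MAP3K8 share a match. No match means only that these letters are not in the window.

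**Figure D1:**
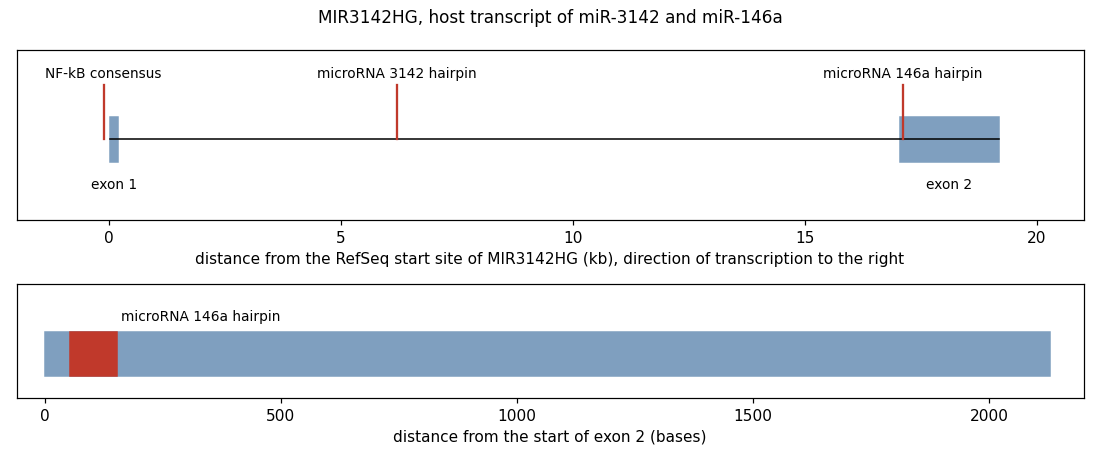
Map of MIR3142HG by distance in kb from the RefSeq start site (upper panel) and by distance in bases from the start of exon 2 (lower panel). Blue boxes are exons of the GENCODE basic transcript and red marks are the NF-kB consensus match and the miRNA hairpins. The miR-146a hairpin begins 17.1 kb from the start site, inside exon 2.

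MIR3142HG, the host transcript, was near 0 in upCIN85 and at its highest levels in the siRNA groups. Its raw counts were 24, 9 and 31 in Mock against 2, 0 and 0 in upCIN85. In the siRNA experiment they were 49, 32 and 29 (siNeg) and 42, 29 and 25 (siCIN85). The upCIN85 libraries were all below the lowest Mock library, and 2 of the 3 had no count. In CPM, the order from high to low was siNeg with 9.21 ± 2.64, siCIN85 with 8.39 ± 1.80, Mock with 3.83 ± 2.04 and upCIN85 with 0.117 ± 0.202 (SD, n = 3 each). In this order only the siNeg and siCIN85 libraries overlapped. The lowest siCIN85 library (6.60 CPM) was above the highest Mock library (5.44).

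For upCIN85 against Mock, the group totals were 2 and 64 counts, a Mock to upCIN85 ratio of 33.5 with an exact 95% counting interval of 8.91 to 283. The interval covers counting error only and takes each count as a separate molecule. The fitted log2FC was -4.79 (SE 0.75), and it depends on the prior count that the fit adds where counts are 0. MIR3142HG entered the fit through the siRNA groups, where its counts are higher, and was filtered out when only the 6 Mock and upCIN85 libraries were fitted. The fitted value reached -7.19 without upCIN85 replicate 1, the only upCIN85 library with counts, and was -4.27 at its smallest over the left-out libraries.

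In the knockdown, MIR3142HG libraries ran from 7.55 to 12.2 CPM in siNeg and from 6.60 to 10.2 in siCIN85. The log2FC was -0.13 (SE 0.37, 95% interval -0.90 to 0.64; adjusted p = 0.900, edgeR), and its sign was positive without siNeg replicate 1 (0.13) or siCIN85 replicate 3 (0.0073). Between the control groups the host transcript was at higher levels in siNeg than in Mock in every library, with a log2FC of 1.27 (SE 0.38; adjusted p = 0.165, edgeR). This difference did not pass the threshold. The siNeg and Mock groups also differ in depth, in selection and in the kind of transfection, and these cannot be told apart.

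**Figure D2:**
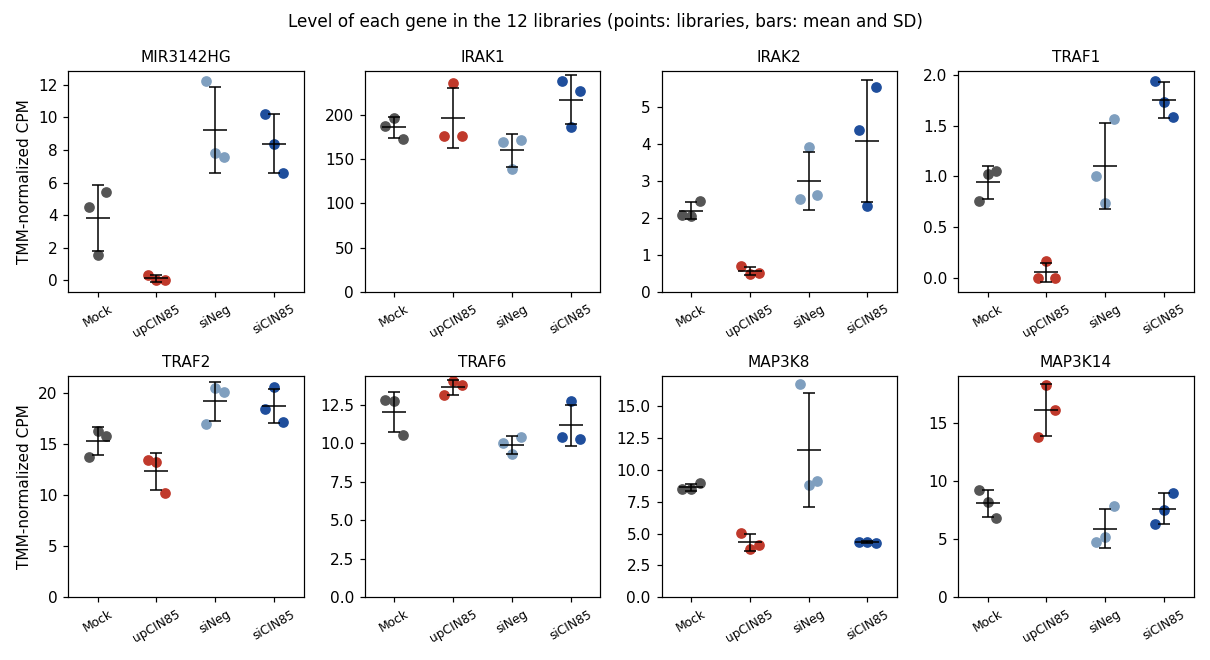
TMM-normalized CPM of the 8 genes (vertical axes, 1 scale per gene) in the 4 groups. Points are libraries and bars are the mean and SD of 3 libraries. MIR3142HG was at 0 in 2 upCIN85 libraries, MAP3K8 was near 4.3 CPM in both upCIN85 and siCIN85, and MAP3K14 was highest in upCIN85.

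IRAK1 and IRAK2 are members of the IRAK family in the Toll-like and interleukin-1 receptor branch. IRAK1 (chrX:154010500-154019980, -) had the highest counts of the 8. Mock libraries were at 187, 197 and 173 CPM and upCIN85 libraries at 177, 236 and 176. The siNeg libraries were at 169, 138 and 172 CPM, below the 239, 186 and 227 of siCIN85. The Mock and upCIN85 libraries overlapped, and the log2FC was 0.079 (SE 0.13; adjusted p = 0.833, edgeR). Without upCIN85 replicate 2 it was -0.074.

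All siCIN85 libraries of IRAK1 were above all siNeg libraries. The log2FC was 0.44 (SE 0.13; adjusted p = 0.112, edgeR) without pairing and 0.44 with the replicate numbers of the knockdown as a block, where the adjusted p was 0.0391. It also passed without siCIN85 replicate 2 (log2FC 0.53, adjusted p = 0.0491, edgeR). Over all genes 429 passed with this block and 362 without siCIN85 replicate 2, against 131 with all libraries and no block. The IRAK1 calls are descriptions, as the members were chosen with this comparison known. Against Mock, siNeg had a log2FC of -0.22 (SE 0.13; adjusted p = 0.524, edgeR), with the 3 siNeg libraries below the Mock libraries.

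IRAK2 (chr3:10164865-10243743, +) was counted 11, 12 and 14 times in Mock and 4, 3 and 3 times in upCIN85. The siRNA groups gave 10, 16 and 10 counts for the control and 18, 8 and 21 for the knockdown. The upCIN85 libraries lay below those of the other groups, while siNeg and siCIN85 overlapped. Its level was 2.19 ± 0.233 CPM in Mock and 0.567 ± 0.116 in upCIN85 (SD, n = 3 each). The log2FC was -1.91 (SE 0.46). The Mock to upCIN85 ratio of the pooled counts was 3.88 (exact 95% counting interval 1.89 to 8.74). In the knockdown the log2FC was 0.45 (SE 0.35; adjusted p = 0.569) and between the controls 0.46 (SE 0.37; adjusted p = 0.649, edgeR).

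TRAF6 (chr11:36487027-36510272, -), the ubiquitin ligase downstream of the IRAK kinases, lay within a narrow range of levels. Mock libraries were at 12.8, 12.7 and 10.5 CPM, against 13.1, 14.1 and 13.8 for upCIN85. The siNeg libraries were at 9.996, 9.29 and 10.4 CPM, against 10.4, 12.7 and 10.3 for siCIN85. The upCIN85 libraries lay above the Mock libraries, and siNeg and siCIN85 overlapped. The log2FC was 0.18 in upCIN85 (SE 0.17; 95% interval -0.16 to 0.53; adjusted p = 0.663) and 0.17 in siCIN85 (SE 0.19; 95% interval -0.23 to 0.56; adjusted p = 0.703). Between the controls it was -0.28 (SE 0.18; adjusted p = 0.553, edgeR). Neither of the 2 members with seed matches passed the threshold in upCIN85. Mature miR-146a was not measured, so an effect of it on these genes was not tested.

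TRAF2 (chr9:136881912-136926607, +), an adaptor of TNF receptors, was at 13.7, 16.3 and 15.8 CPM in Mock and 13.5, 13.2 and 10.2 in upCIN85. It was at 16.99, 20.53 and 20.1 CPM in siNeg and 18.4, 20.53 and 17.2 in siCIN85. The upCIN85 libraries were below and the siNeg libraries above those of Mock. The log2FC was -0.31 in upCIN85 (SE 0.17; adjusted p = 0.412), -0.038 in siCIN85 (SE 0.17; adjusted p = 0.940) and 0.33 between the controls (SE 0.17; adjusted p = 0.436, edgeR).

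TRAF1 (chr9:120902393-120929173, -) is a TRAF without a ligase domain that binds TRAF2 and is known as a target gene of NF-kB. It was near the limit of counting, with 4, 6 and 6 counts in Mock and 0, 1 and 0 in upCIN85. The siNeg libraries had 4, 3 and 6 counts and the siCIN85 libraries 8, 6 and 6. The upCIN85 libraries were below all others, and each siCIN85 library was above each siNeg library in CPM (1.58 to 1.94 against 0.733 to 1.56). TRAF1 did not pass the filter on low counts and was not in the fit. The Mock to upCIN85 ratio of the pooled counts, 16 against 1, was 16.8 (exact 95% counting interval 2.61 to 703), and the siCIN85 to siNeg ratio was 1.62 (0.765 to 3.53).

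MAP3K8 (TPL2, chr10:30433937-30461833, +), the kinase that links NF-kB precursor p105 to the MEK and ERK branch, had fewer counts in upCIN85 and in siCIN85 than in the respective controls. It was at 8.47, 8.49 and 8.94 CPM in Mock and 5.07, 3.76 and 4.08 in upCIN85. It was at 16.7, 8.80 and 9.11 CPM in siNeg and 4.37, 4.34 and 4.22 in siCIN85. Neither pair of groups overlapped, and siNeg replicate 1 lay well above the other siNeg libraries.

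The log2FC of MAP3K8 was -1.42 (SE 0.28) in siCIN85 against siNeg. Over the left-out libraries it ran from -1.59 to -1.05, the latter without siNeg replicate 1. In upCIN85 against Mock the log2FC was -1.003 (SE 0.26; adjusted p = 0.0648, edgeR), which did not pass with all libraries. It passed with the 6 libraries of the comparison (adjusted p = 0.0380, edgeR), where 281 of 12299 genes did. Between the controls the log2FC was 0.42 (SE 0.24; adjusted p = 0.500), with overlapping libraries. Plasmid and siRNA, given to alter CIN85 in opposite directions, both went with fewer MAP3K8 counts. The 2 comparisons share no library, but they share the fit and its estimate of spread. MAP3K8 was chosen with both known, so nothing is read from their shared direction.

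MAP3K14 (NIK, chr17:45263119-45317145, -), the kinase of the non-canonical NF-kB branch, had more counts in upCIN85 than in Mock. It was counted 49, 48 and 39 times in Mock and 79, 112 and 95 times in upCIN85. In siNeg it was counted 19, 21 and 30 times, and in siCIN85 26, 26 and 34 times. The upCIN85 libraries stood above all others, and siNeg and siCIN85 overlapped. Its level was 8.07 ± 1.19 CPM in Mock and 16.1 ± 2.24 in upCIN85 (SD, n = 3 each), and the log2FC was 1.00 (SE 0.21), and 0.89 at its smallest over the left-out libraries.

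In the knockdown the log2FC of MAP3K14 was 0.37 (SE 0.26; adjusted p = 0.514) and between the controls -0.45 (SE 0.24; adjusted p = 0.465, edgeR). An antisense gene, MAP3K14-AS1, overlaps the locus, and it had 1 count in all 12 libraries.

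**Figure D3:**
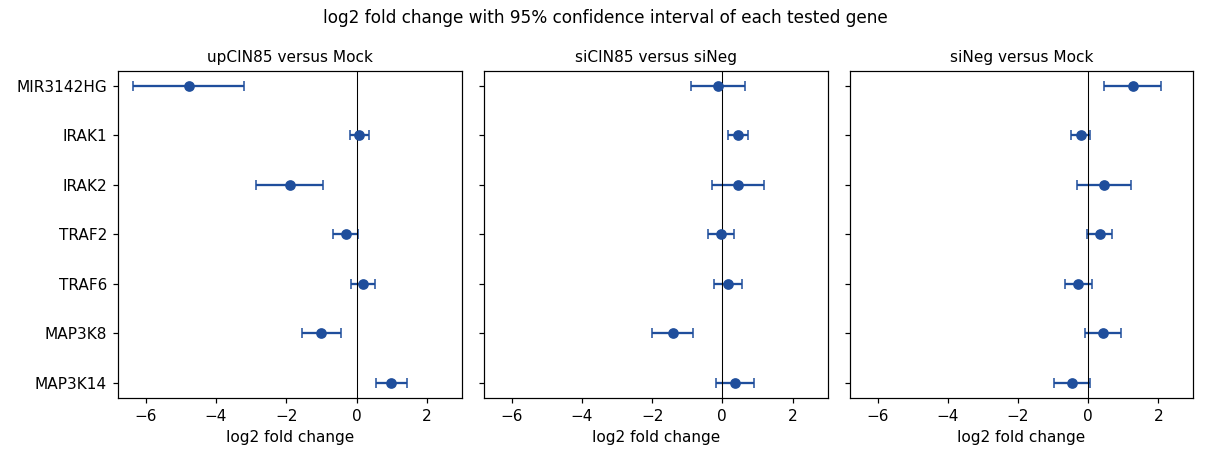
log2FC (horizontal axes) of the 7 tested genes in upCIN85 versus Mock, siCIN85 versus siNeg and siNeg versus Mock. Points are edgeR estimates and bars their 95% confidence intervals. MIR3142HG reached -4.79 in upCIN85, MAP3K8 was at -1.003 in upCIN85 and -1.42 in siCIN85, and MAP3K14 was at 1.00 in upCIN85.

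Over the group, 7 of the 8 genes were tested. In upCIN85 against Mock 2 passed an adjusted p below 0.05, MIR3142HG and MAP3K14, where 1.23% of the 12542 genes tested did. MAP3K14 was no longer among them without Mock replicate 2 (log2FC 1.00), Mock replicate 3 (0.89), upCIN85 replicate 2 (0.89) or upCIN85 replicate 3 (0.99). Over all genes 34, 46, 260 and 25 were called in these fits, against 154 with all libraries. IRAK2 and MAP3K8 were added with the 6 libraries of the comparison alone, with the replicate block and without the filter on low counts. Calls over all genes also rose there, to 281 of 12299, 1035 of 12542 and 637 of 25141. The lineage markers did not move together in upCIN85. ALPL and COL1A2 passed as higher, and COL1A1 (log2FC 0.56) and RUNX2 (0.44) were higher without passing. CDH2 (-0.47) and SPARC (-0.35) were lower without passing, with libraries that did not overlap, and VIM was at 0.054. The part of these markers in the results was not tested. The libraries of the 2 groups did not overlap for 7 of the 8 (5 lower and 2 higher in upCIN85), against 20.7% of all genes tested. In siCIN85 against siNeg 1 passed, MAP3K8, where 1.04% of all genes did. It was not called without siNeg replicate 1 (log2FC -1.05), siCIN85 replicate 1 (-1.43) or siCIN85 replicate 3 (-1.41), nor with the 6 libraries of the comparison alone (-1.41). Over all genes 17, 9, 14 and 50 were called in these fits, against 131 with all libraries. The libraries of 3 of the 8 did not overlap (MAP3K8 lower, IRAK1 and TRAF1 higher), against 20.2%. As the members were chosen on these comparisons, nothing is read from the shares.

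In siNeg against Mock none of the 7 passed with edgeR, where 0.526% of all genes did. 1 of the 7, MIR3142HG, had an unadjusted p below 0.05, as did 1560 of the 12542 genes tested. DESeq2 also called none of the 7, where it called 183 of 11001 genes. The libraries of 5 of the 8 did not overlap (MIR3142HG, IRAK2 and TRAF2 higher, IRAK1 and TRAF6 lower in siNeg), against 19.4% of all genes.

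Other genes from the receptors to the IKK complex, with related kinases of the MAP kinase branches, were followed as a list of 66. Of these, 64 were in the table and 57 could be tested. RNF31 and IKBKG were not analysed here. As the list was written with earlier results of these data known, nothing is read from its shares of calls. In upCIN85 against Mock 2 of the 57 passed, both lower: BIRC3 and TIFA, where 1.23% of all genes tested did. The median log2FC of the 57 was -0.067, against 0.0072 for all genes tested. Of the 57, 23 were positive and 34 negative, where 51.1% of all genes were positive.

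BIRC3 (cIAP2), a ubiquitin ligase of TNF receptor complexes that is also known as a target gene of NF-kB, was at 38.6, 36.5 and 39.6 CPM in Mock and 10.3, 17.5 and 15.6 in upCIN85. The upCIN85 libraries were all lower, with a log2FC of -1.40 (SE 0.18; adjusted p = 0.00115, edgeR). It was at 74.7, 98.7 and 93.8 CPM in siNeg and 59.9, 78.7 and 79.5 in siCIN85, which overlapped (log2FC -0.29, adjusted p = 0.388). BIRC3 was the 1 gene of the 57 that passed between the controls, where 0.526% of all genes tested did. It was higher in siNeg than in Mock by a log2FC of 1.22 (SE 0.17; adjusted p = 0.00252, edgeR). Its groups stood in the same order as those of MIR3142HG.

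TIFA, an adaptor that binds TRAF6, fell from 27.1, 26.1 and 30.3 CPM in Mock to 17.8, 11.6 and 17.2 in upCIN85 (log2FC -0.84, SE 0.18; adjusted p = 0.0306, edgeR). The groups did not overlap. The call of TIFA was lost on leaving out any 1 of the 3 Mock libraries (log2FC -0.86, -0.89 and -0.78 for replicates 1, 2 and 3), upCIN85 replicate 2 (-0.67) or upCIN85 replicate 3 (-0.93). Over all genes 89, 34, 46, 260 and 25 were called in these fits, against 154 with all libraries.

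In siCIN85 against siNeg 2 of the 57 passed, both higher, where 1.04% of all genes tested did. The median was 0.0037 against -0.0052 for all genes. TNFRSF1B, the second TNF receptor, rose from 3.998, 6.60 and 3.65 CPM in siNeg to 15.5, 8.68 and 16.6 in siCIN85 (log2FC 1.52, SE 0.31; adjusted p = 0.0264). MAP2K3, a kinase that activates p38, rose from 205, 221 and 250 CPM to 278, 342 and 313 (log2FC 0.46, SE 0.11; adjusted p = 0.0462, edgeR). All siCIN85 libraries of both genes were above the siNeg libraries.

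These 2 calls were not firm. Leaving out 1 library also changed the calls over all genes, from 131 to 17, 13 and 189 without siNeg replicates 1, 2 and 3. Without siCIN85 replicates 1, 2 and 3 they were 9, 362 and 14. That of TNFRSF1B was lost without siNeg replicate 1 (log2FC 1.40), 2 (1.82) or 3 (1.35) or siCIN85 replicate 1 (1.41) or 3 (1.34). That of MAP2K3 was lost without siNeg replicate 1 (0.40) or 2 (0.44) or siCIN85 replicate 1 (0.54), 2 (0.38) or 3 (0.45). Both were lost with the 6 libraries of the comparison alone, where 50 of 11806 genes passed. With replicate blocks in both experiments 7 of the 57 passed in the knockdown, where 968 of the 12542 genes tested did. With the block in the knockdown alone the 2 genes above passed, where 429 did.

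By role, the 10 tested receptors had a median log2FC of -0.17 in upCIN85 and 0.39 in siCIN85, with 8 of 10 positive in the latter against 49.2% of all genes tested, and 1 of them passed there against 1.04% of all genes. The 6 receptor adaptors, which include MYD88, had medians of -0.11 and 0.10 and no call. Of the 10 other IRAK and TRAF genes and partners 1 passed, TIFA, and of the 7 tested ubiquitin ligases and conjugating enzymes 1, BIRC3. Both passed in upCIN85, where 1.23% of all genes did. None of the 6 deubiquitinases and binding proteins passed in a comparison, and 1 of the 18 TAK1, IKK and related kinases did, MAP2K3 in siCIN85.

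**Figure D4:**
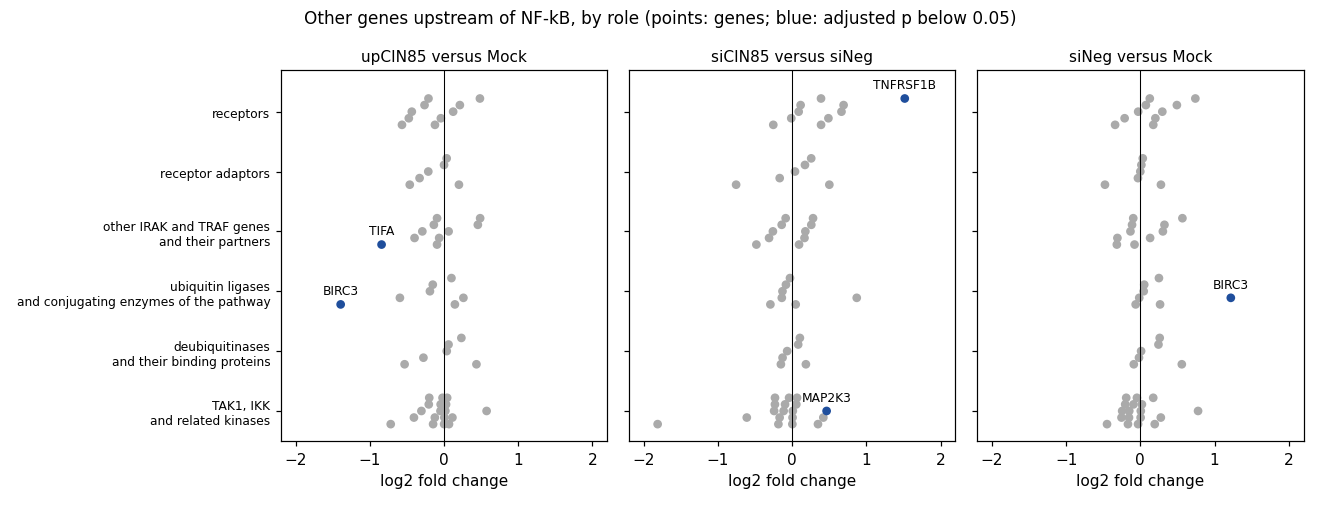
log2FC (horizontal axes) of the 57 tested genes of the list from receptors to IKK and related kinases, in rows by role, for the 3 comparisons. Points are genes and are spread vertically for legibility, and named blue points passed an adjusted p below 0.05. BIRC3 was at -1.40 in upCIN85 and at 1.22 in siNeg versus Mock.

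Genes reported elsewhere as targets of miR-146a, other than IRAK1 and TRAF6, were followed as a list of 9, of which 8 could be tested. It too was written with earlier results of these data known, so its calls are descriptions. In upCIN85 2 of the 8 passed, both lower, SMAD4 and RELB, where 1.23% of all genes tested passed. The median of the 8 was -0.12 in upCIN85 and -0.0047 in siCIN85, against 0.0072 and -0.0052 for all genes. None passed in siCIN85, also none at an unadjusted p below 0.05 in edgeR.

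SMAD4, the shared mediator of TGF-beta and BMP signals, was at 53.1, 56.4 and 71.4 CPM in Mock and 25.7, 23.4 and 12.9 in upCIN85 (log2FC -1.54, SE 0.30; adjusted p = 0.0187, edgeR). The groups did not overlap. The SMAD4 call was lost without Mock replicate 2 (-1.60), Mock replicate 3 (-1.40) or upCIN85 replicate 3 (-1.30). Over all genes 34, 46 and 25 were called in these fits, against 154 with all libraries. In siNeg the SMAD4 libraries were at 88.0, 87.7 and 42.4 CPM and in siCIN85 at 79.6, 83.6 and 40.4, with replicate 3 low in both.

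RELB, an NF-kB subunit of the non-canonical branch, was at 45.3, 37.9 and 45.4 CPM in Mock and 22.9, 32.4 and 19.7 in upCIN85 (log2FC -0.78, SE 0.18; adjusted p = 0.0452, edgeR). It was higher in siNeg, at 91.2, 75.02 and 73.4 CPM, than in Mock (log2FC 0.90, SE 0.18; adjusted p = 0.0261, edgeR). The upCIN85 call was lost without Mock replicate 1 (-0.73), 2 (-0.86) or 3 (-0.73) or upCIN85 replicate 1 (-0.72) or 3 (-0.63), and with a filter of 10 counts in every library (-0.77). Over all genes 89, 34, 46, 74, 25 and 120 were called in these fits, against 154. The control call was lost without Mock replicate 1 (0.94), 2 (0.81) or 3 (0.94) or siNeg replicate 1 (0.79) or 2 (0.95). Over all genes 26, 9, 7, 34 and 8 were called in these fits, against 66.

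MAP3K8 is held by NFKB1 (as p105) and TNIP2 and acts on MAP2K1 and MAP2K2, and none of these 4 genes passed in a comparison. NFKB1 was at 70.5, 77.8 and 75.1 CPM in Mock and 57.5, 52.3 and 58.8 in upCIN85 (log2FC -0.41, SE 0.12; adjusted p = 0.0924), and its libraries overlapped in the knockdown (log2FC -0.14, adjusted p = 0.606, edgeR). At an unadjusted p below 0.05, 2 of the 4 (NFKB1 and TNIP2) were counted in upCIN85, none in siCIN85 and 1 between the controls. Of the 12542 genes tested, 1817, 1969 and 1560 were counted in the same order.

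Across the 12 libraries the genes whose log2 CPM moved most like that of MIR3142HG were NFKBIZ (r = 0.970), CXCL1 (0.963), PTX3 (0.947), ICAM1 (0.945) and AL031727.1 (0.944). NFKBIZ is an atypical IkB protein, CXCL1 a chemokine, PTX3 a soluble pattern recognition protein and ICAM1 an adhesion molecule. The correlation is a description over 12 libraries that share their groups, without a p-value. CXCL1 had mean levels of 21.1 CPM (Mock), 2.246 (upCIN85), 102 (siNeg) and 78.6 (siCIN85). Those of NFKBIZ were 18.5, 8.10, 35.3 and 33.6 CPM, in the same order.

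**Figure D5:**
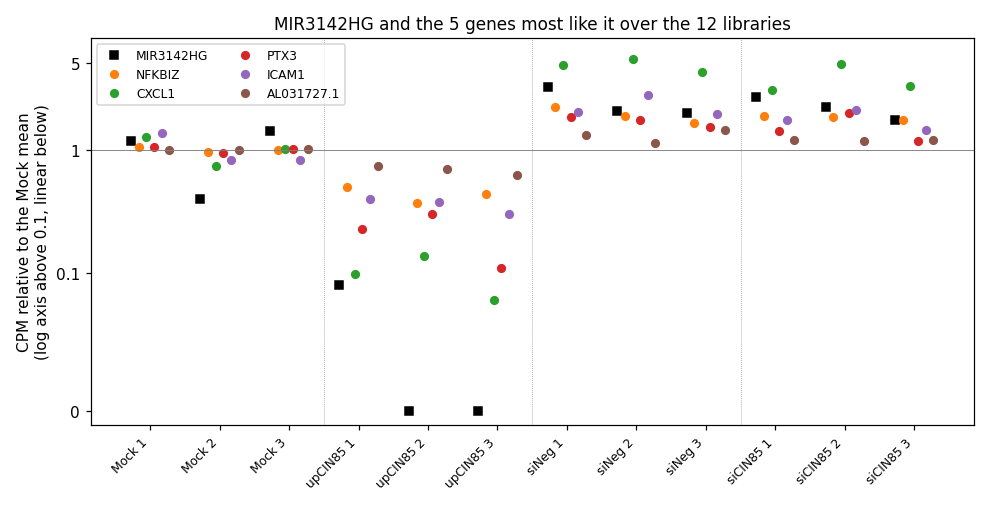
CPM of MIR3142HG (black squares) and of the 5 genes most like it, each divided by its Mock mean, in the 12 libraries. The vertical axis is logarithmic above 0.1 and linear below. All 6 were below the Mock mean in the upCIN85 libraries and above it in the siNeg and siCIN85 libraries.

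MAP3K8 moved with other genes. The most alike were PMPCB (r = 0.924), NUSAP1 (0.891), B4GALT5 (0.888), GALNT1 (0.872) and TNFAIP8 (0.872), and none of the 5 was shared with MIR3142HG. TNFAIP8, a regulator of cell death, was at means of 17.1 and 12.9 CPM in Mock and upCIN85 and of 23.7 and 13.0 in siNeg and siCIN85. PMPCB, a subunit of the mitochondrial processing peptidase, had a narrower range of means, 52.2 and 46.4 CPM in Mock and upCIN85 and 58.6 and 45.4 in siNeg and siCIN85.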

How the data were processed

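Total RNA of 12 HOS libraries was made into 3' tag libraries with molecular identifiers. The authors counted single-end reads per gene with featureCounts, and the deposited values are raw counts of 25141 Ensembl genes. The submitters' processing notes name GRCh38, FastQC, cutadapt 4.3, STAR 2.7.3a, Picard 2.25.6, MultiQC 1.10.1 and Subread 2.0. Whether the identifiers were used to remove duplicates, and the strand setting of the counting, were not given in the sources used here. Tags come from transcript ends, so transcript length does not enter, but if duplicates remain 1 molecule can give several counts. Fewer transcripts per cell cannot be told apart from fewer expressing cells.

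Identifiers were matched to GENCODE 29 (25046 matched, 95 not). Genes were kept by filterByExpr (minimum count 10, minimum total 15), which left 12542. edgeR 4.0.16 (R 4.3.3, limma 3.58.1) with TMM scaling fitted all 12 libraries in 1 quasi-likelihood model of 4 groups without a block (8 residual degrees of freedom), with Benjamini-Hochberg adjustment of p over all genes tested. SE is the log2FC divided by the root of F. Levels are CPM on TMM-scaled library sizes. Intervals of count ratios are exact and conditional on the summed counts. They take each count as a separate molecule and would be too narrow if duplicates remain. The study's tool, DESeq2 (here 1.42.0), was run as an alternative. The fit was tested on simulated data.

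The members and lists were chosen with earlier results of these data known. The genes named were the 8 members, the pathway and target genes past the threshold, the 4 genes around MAP3K8, and the 5 genes with the highest Pearson r to MIR3142HG and to MAP3K8. No 2 libraries of a group agreed within sampling noise. Deviations from the group means were correlated between siNeg and siCIN85 libraries of the same number (r = 0.353, 0.269 and 0.446 over genes), so values with the number as a block are given beside the unblocked ones of the knockdown where they change a call. Between Mock and upCIN85 libraries of the same number these correlations were lower (r = 0.327, 0.228 and 0.0989), and the block there was run as an alternative. Pairing came from the data and not from the labels.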

Additional observations from a re-analysis of the deposited data

How the results depend on the processing

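Of the alternatives to single-gene results, 389 kept direction and side of the threshold, 39 lost the call, 14 gained one and 16 turned the sign. RLE scaling changed no call among the genes named. Of the members, 2 passed in upCIN85, 1 in siCIN85 and 0 in siNeg against Mock, and without a filter on low counts these became 5, 2 and 1. Of the other pathway genes 2, 2 and 1 passed, and without the filter 4 in each comparison. Over all genes, 637, 617 and 376 of 25141 passed without the filter. With 10 counts in every library 1 member passed in upCIN85, where MIR3142HG is then not tested (nor with the 6 libraries alone), and 1 pathway gene in siCIN85. Over all genes 120 and 125 of 10676 passed with that filter. DESeq2 called 4 pathway genes in upCIN85 and 3 between the controls, where 311 of 12462 and 183 of 11001 genes were called. With the 6 libraries alone no member (0) and no pathway gene (0) passed in siCIN85, where 50 of 11806 genes did.

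With the replicate block 4 members and 6 pathway genes passed in upCIN85, and 2 and 7 in siCIN85. A block for the siRNA libraries alone, an alternative added once the data had been seen, gave 2 members there. Calls over all genes rose from 154 to 1035 and from 131 to 968 (429 with the knockdown block alone). Same-numbered Mock and upCIN85 libraries deviated together by r = 0.327, 0.228 and 0.0989, and each correlated best with its own number. The highest r between different numbers was 0.0303. No source used here states whether these libraries are paired. Apart from IRAK1, the block changed no member's call in siCIN85.

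Over the left-out libraries the members passing ran from 1 to 2 in upCIN85 and from 0 to 2 in siCIN85, and the pathway genes from 1 to 2, from 0 to 2 and, between the controls, from 1 to 4. Calls over all genes ran from 25 to 260, from 9 to 362 and from 7 to 134 in the same order. The log2FC of IRAK1 in upCIN85 ran from -0.074 to 0.15. In siCIN85 MIR3142HG ran from -0.30 to 0.13, TRAF2 from -0.12 to 0.010, TIFA from -0.22 to 0.036, SMAD4 from -0.38 to 0.16 and RELB from -0.18 to 0.11. RELB in siCIN85, at 0.0039, was -0.012 without the filter, -0.0061 and -0.0072 with the 2 blocks and -0.0024 with DESeq2. The cause was not tested. Without the filter MIR3142HG passed between the controls (adjusted p = 0.00650) and TRAF1 in upCIN85 (log2FC -3.57, adjusted p = 0.0160), and DESeq2 gave TRAF1 no adjusted p. Members with under 20 counts in a library are limited by counting.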
